A study of Mus musculus with 6 samples.

Results

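Hyaluronan is a long, unsulfated sugar polymer of the extracellular matrix, and 9 mouse genes that make it, break it down or bind it at the cell surface are described here, of 46603 genes counted. They were named as a set after Has1, a hyaluronan synthase, had been seen to be high in the knockout libraries, so they were chosen by the Has1 level of the same data. The Has1 difference is therefore a description without a test, and the other 8 genes were read in the same libraries. RNA was sequenced from cells of the enamel organ, the epithelium of the growing tooth that holds the enamel-forming ameloblasts, dissected from the lower incisors of C57BL/6 mice. The knockout group, DKO, held 3 libraries (replicates 1, 3 and 4) from mice with both Stim1 and Stim2 knocked out, and the wild-type group, WT, held 3 libraries (replicates 1, 2 and 3). STIM1 and STIM2 sense calcium in the endoplasmic reticulum and open store-operated channels of the plasma membrane, and the study asked about this calcium entry in ameloblasts. The sources used here do not give the promoter or cell type of the deletion, the animals' age or sex, or whether animals were pooled. The labels name no separate animals for the replicates, so p-values cover the spread between libraries alone. Xist levels differed within each group, so a group's libraries did not all come from the same animal, but how many animals there were is not known.

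Hyaluronan is made at the plasma membrane by 3 related synthases, HAS1, HAS2 and HAS3, which join UDP-glucuronic acid and UDP-N-acetylglucosamine and push the growing chain out of the cell. UGP2 makes UDP-glucose and UGDH oxidises it to UDP-glucuronic acid. Chains are cut at the cell surface by TMEM2 (also called CEMIP2) and HYAL2, and in lysosomes by HYAL1. CD44 is the main cell-surface hyaluronan receptor and is abundant in many epithelia.

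The libraries held 18609759 to 22829411 counts. Stim1 was at 29.6% of its WT level in DKO, with 422 ± 65.1 against 125 ± 18.1 CPM (TMM-scaled counts per 1e6 counts, SD, n = 3 in each group), and Stim2 was at 46.8% (261 ± 42.6 and 122 ± 15.8 CPM; SD, n = 3). Xist exceeded 100 CPM in WT 1, WT 2 and DKO 1 and stayed at or below 1.22 CPM elsewhere, so each group mixed the sexes unequally. The ameloblast matrix genes Ambn, Amelx and Enam were high in all 6 libraries, and the summed level of 11 enamel organ markers was 105900 to 170900 CPM in WT and 143900 to 211800 CPM in DKO. Across all genes tested, 153 of 14721 were called at an edgeR adjusted p below 0.05, which is 1.04%. As further background, the 3 DKO and 3 WT libraries did not overlap for 23.3% of genes, 18% had an unadjusted edgeR p below 0.05, and DESeq2 called 5.52%.

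RefSeq promoter entries on GRCm38.p6 were found for 6 of the 9 genes, all but Has2, Has3 and Tmem2. The 3 shown belong to the genes whose DKO and WT libraries did not overlap in CPM, and each ends at the first base before the annotated gene. Capitals mark matches, on either strand, to 5 motifs: the NFAT core GGAAA, the AP-1 site TGANTCA, the cyclic AMP response element TGACGTCA, the GC box GGGCGG and the TATA box TATAAA.
Has1 (chr17:17855206-17855438, minus strand): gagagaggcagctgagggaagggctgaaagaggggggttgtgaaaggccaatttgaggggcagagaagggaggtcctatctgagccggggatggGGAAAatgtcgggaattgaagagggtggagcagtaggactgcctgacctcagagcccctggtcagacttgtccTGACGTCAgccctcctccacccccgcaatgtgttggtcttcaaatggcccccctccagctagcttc
Hyal1 (chr9:107576700-107576926, plus strand): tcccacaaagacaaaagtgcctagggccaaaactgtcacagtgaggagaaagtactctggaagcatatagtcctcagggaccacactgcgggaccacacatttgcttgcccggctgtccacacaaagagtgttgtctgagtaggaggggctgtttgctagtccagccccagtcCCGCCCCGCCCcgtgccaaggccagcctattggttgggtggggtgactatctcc
Ugdh (chr5:65435950-65436092, minus strand): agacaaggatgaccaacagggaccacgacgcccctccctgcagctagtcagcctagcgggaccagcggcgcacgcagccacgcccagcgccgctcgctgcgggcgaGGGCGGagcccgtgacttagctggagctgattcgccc

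The Has1 stretch of 233 bases held 1 NFAT core and 1 complete cyclic AMP response element, the latter beginning 66 bases before the gene. Among 32851 RefSeq promoters cut to the same length, 53% held the NFAT core and 1.32% held the cyclic AMP response element. For these shares each promoter was cut to its first bases, those farthest from the gene, so a cut promoter need not reach its gene. The AP-1 site, GC box and TATA box had no match there, and 6.41%, 30.3% and 11.9% of promoters held them. In 227 bases the Hyal1 stretch held 2 overlapping GC boxes, both on the opposite strand, where 29.4% of promoters of that length held at least 1. The Ugdh stretch of 143 bases, which ends at its gene, held 1 GC box. Of promoters cut to their first 143 bases, which need not reach the gene, 15.7% held at least 1. Of the stretches not shown, that of Cd44 (250 bases) held 2 NFAT cores, where 55.6% of promoters held at least 1. That of Ugp2 (250 bases) held 1 GC box, where 32.7% did. The Hyal2 entry held too few bases before the annotated gene and was not searched. These matches describe the letters of the sequence and were not tested for binding.

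Has1 encodes a hyaluronan synthase isoform and lies on chromosome 17 at 17843323 to 17855205, minus strand (GRCm38, GENCODE vM21, gene ENSMUSG00000003665). Its level was 0.764, 0.582 and 0.741 CPM in WT 1, 2 and 3, and 11.2, 12.3 and 14.8 CPM in DKO 1, 3 and 4. Every DKO library was far above every WT library, and within each group the libraries lay close together. The means were 0.695 ± 0.0992 in WT and 12.8 ± 1.81 in DKO (CPM, SD, n = 3 in each group), a ratio of 18.4, and the fitted log2 fold change was 4.18 (SE 0.20). As this value chose the set, no p is given for it. In bulk RNA, a change in the number of cells that express a gene and a change in RNA per cell cannot be told apart.

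The Has1 signal rested on few fragments in WT and on many more in DKO. WT 1, 2 and 3 held 18, 12 and 17 counts, with exact 95% Poisson intervals of 10.7 to 28.4, 6.2 to 21 and 9.9 to 27.2, which cover counting error only. DKO 1, 3 and 4 held 224, 241 and 276 counts, with intervals of 196 to 255, 212 to 273 and 244 to 311. Has1 was thus counted in every WT library, at a low level. Between the Xist-high libraries alone the DKO to WT ratio was 16.7, and between the Xist-low libraries it was 18.2. No other annotated gene shared Has1 exon bases.

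Has2 encodes the synthase that is essential in the embryo, and here it was scarce and variable (chromosome 15, 56665627 to 56694539, minus strand, ENSMUSG00000022367). It stood at 4.50, 2.47 and 7.50 CPM in WT 1, 2 and 3 and at 3.36, 1.33 and 3.80 CPM in DKO 1, 3 and 4. DKO 3 was the lowest library and WT 3 the highest, and the groups overlapped. The mean was 4.82 ± 2.53 in WT and 2.83 ± 1.32 in DKO (CPM, SD, n = 3), and the log2 fold change was -0.77 (SE 0.48, adjusted p = 0.448 by edgeR). The difference was smaller than the spread between WT libraries. The log2 ratio was -0.05 between Xist-high libraries and -1.55 between Xist-low libraries. The antisense gene Has2os shares 182 exon bases with Has2, 4.3% of its exon length, and reads of the pair cannot be told apart there because the library kit does not mark strand.

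Has3, whose enzyme makes shorter chains than the other synthases in many assays, was the most abundant synthase in every library (chromosome 8, 106870242 to 106884566, plus strand, ENSMUSG00000031910). Its level was 42.5, 82.8 and 44.5 CPM in WT 1, 2 and 3 and 65.7, 90.3 and 77.6 CPM in DKO 1, 3 and 4. WT 2 lay within the DKO range, and the other WT libraries lay below all DKO libraries. The means were 56.6 ± 22.7 and 77.9 ± 12.3 CPM (SD, n = 3), and the log2 fold change was 0.46 (SE 0.26, adjusted p = 0.391 by edgeR). Without WT 2 the log2 fold change was 0.84 and the edgeR adjusted p was 0.0308, which passes the threshold. Leaving out WT 2 also raised the calls over all genes from 153 to 335. Has3 was not called when any other single library was left out. The log2 ratio was 0.07 between Xist-high libraries, which include WT 2, and 0.92 between Xist-low libraries. Has3 shares 352 exon bases, 5.52% of its exon length, with Chtf8 on the opposite strand.

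Has3 varied with the ameloblast matrix gene Ambn, which encodes ameloblastin. Over the 6 libraries Pearson's r of log2 CPM was 0.94 between Has3 and Ambn, 0.87 with Klk4, a maturation-stage protease, 0.71 with Amelx, 0.67 with Enam and -0.68 with the basal keratin Krt14. Tmem2 had an r of 0.92 with Ambn. Has3 and Tmem2 had the highest r with Ambn of the 9 genes and are shown for that reason. Of the other genes, Ugdh had an r of 0.74 with Ambn, Has1 0.65, Cd44 0.58, Hyal2 0.42, Ugp2 -0.48, Hyal1 -0.52 and Has2 -0.79. These values are descriptions over 6 points that share their scaling and include both groups. The matrix genes themselves overlapped between groups, with Ambn at 37560, 66910 and 49260 CPM in WT 1, 2 and 3 and 62380, 90060 and 67630 CPM in DKO 1, 3 and 4. Ambn differed by 0.52 on the log2 scale (SE 0.30, adjusted p = 0.418 by edgeR), and its part in the Has3 and Tmem2 values was not tested.

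**Figure D1:**
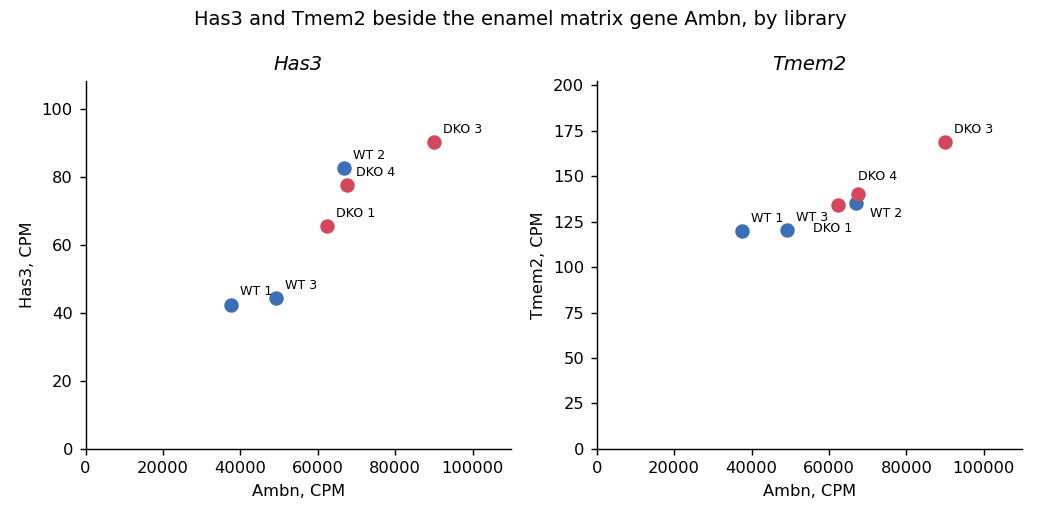
Level of Has3 (left) and Tmem2 (right) in CPM against the level of Ambn in CPM, with 1 point for each of the 6 libraries (blue WT, red DKO). WT 2, at 66910 CPM of Ambn, lies among the DKO libraries in both panels.

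**Figure D2:**
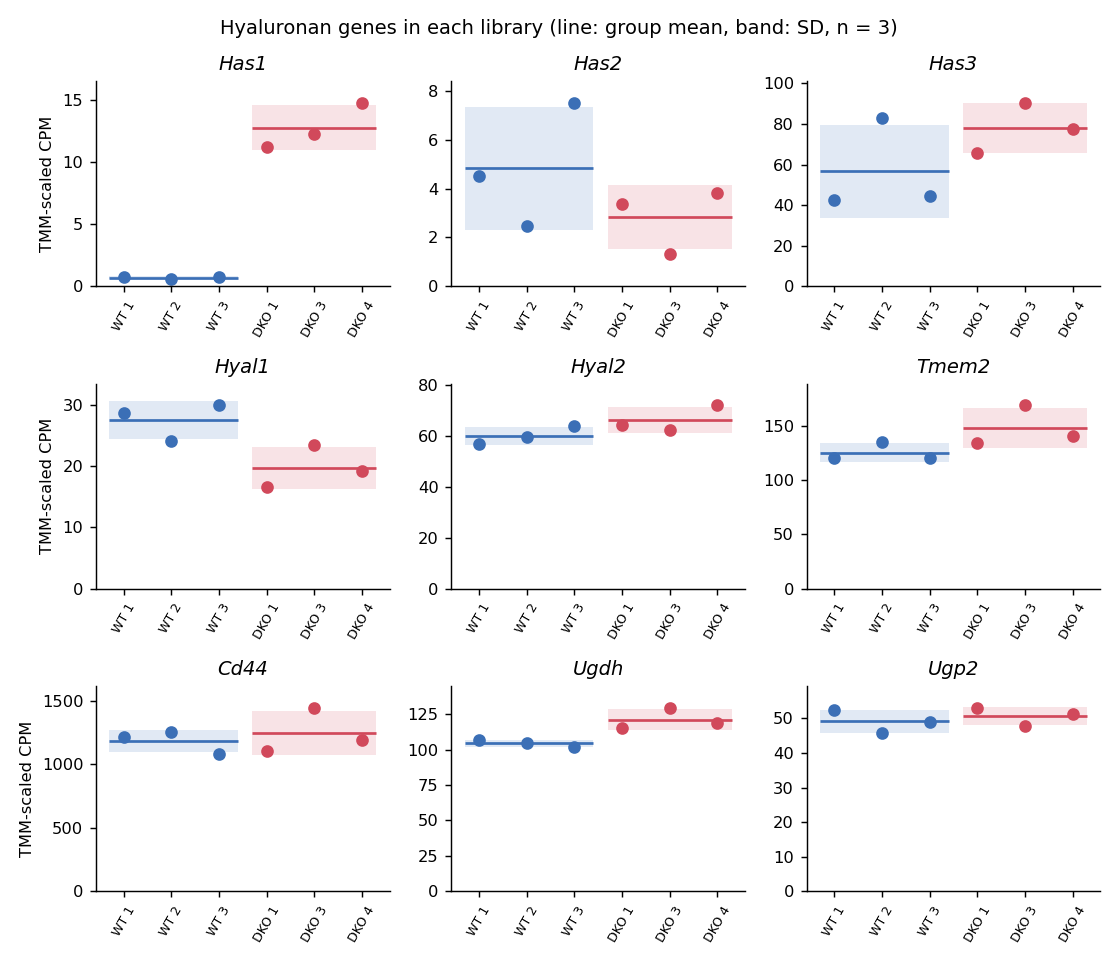
TMM-scaled CPM of the 9 hyaluronan genes in each library, with points for libraries, lines for group means and bands for SD (n = 3). For Has1 the DKO points lie at 11.2 to 14.8 and the WT points at 0.582 to 0.764, and for Hyal1 and Ugdh the groups also do not overlap.

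Levels can be compared between genes on the deposited FPKM scale, which divides by transcript length. On it Has3 led the synthases in every library, with a WT mean of 9.85 FPKM against 1.15 FPKM for Has2 and 0.318 FPKM for Has1. In DKO, Has1 stood at a mean of 6.05 FPKM and was above Has2 in each library. Has1 made up 4.02%, 1.82% and 3.18% of the summed synthase FPKM in WT 1, 2 and 3 and 30.4%, 26.8% and 32.7% in DKO 1, 3 and 4. Has3 remained the largest share throughout, at 78.8% to 94.3% in WT and 62.8% to 71.7% in DKO. The transcript pool of the synthases therefore held more Has1 in DKO without Has3 losing its first place.

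Summed synthase FPKM was 9.11, 14.9 and 9.90 in WT 1, 2 and 3 and 17.9, 21.0 and 21.7 in DKO 1, 3 and 4. Every DKO library lay above every WT library. With Has1 left out, the sums were 8.74, 14.7 and 9.59 in WT and 12.4, 15.4 and 14.6 in DKO, and the groups overlapped. The separation of the summed value thus rested on Has1, the gene by which the set was chosen.

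**Figure D3:**
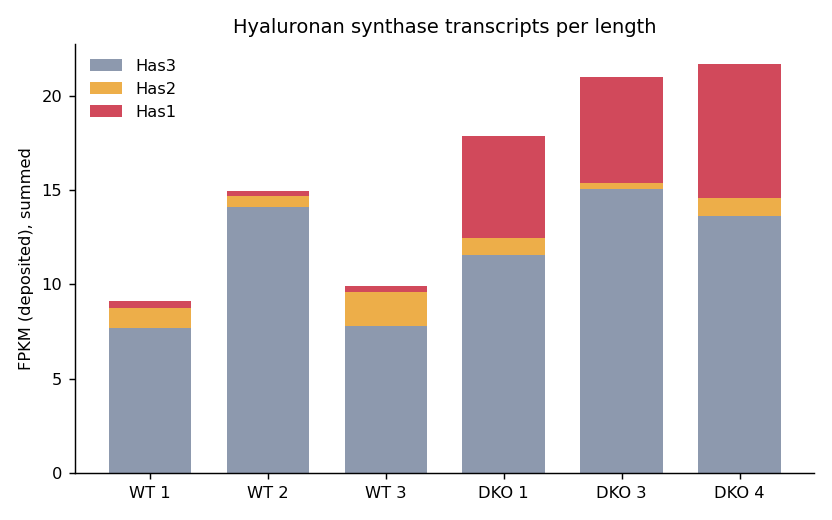
Deposited FPKM of Has3, Has2 and Has1 stacked for each library, with bar height giving the summed synthase FPKM from 0. Has3 is the tallest segment in all 6 bars, and the Has1 segment is 0.273 to 0.366 FPKM in WT and 5.44 to 7.08 FPKM in DKO.

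Of the 8 genes other than Has1, 0 were called by edgeR and 0 by DESeq2, against 1.04% and 5.52% over all genes. An unadjusted edgeR p below 0.05 was found for 1 gene that was higher in DKO, Ugdh, and 1 that was lower, Hyal1, and for these the DKO and WT libraries did not overlap. Over all tested genes 18% had such a p and 23.3% did not overlap, in either direction. The log2 fold change was above 0 for 6 genes and below 0 for 2, with a median of 0.11 against -0.01 over all tested genes. All 9 genes passed the filter on low counts.

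**Figure D4:**
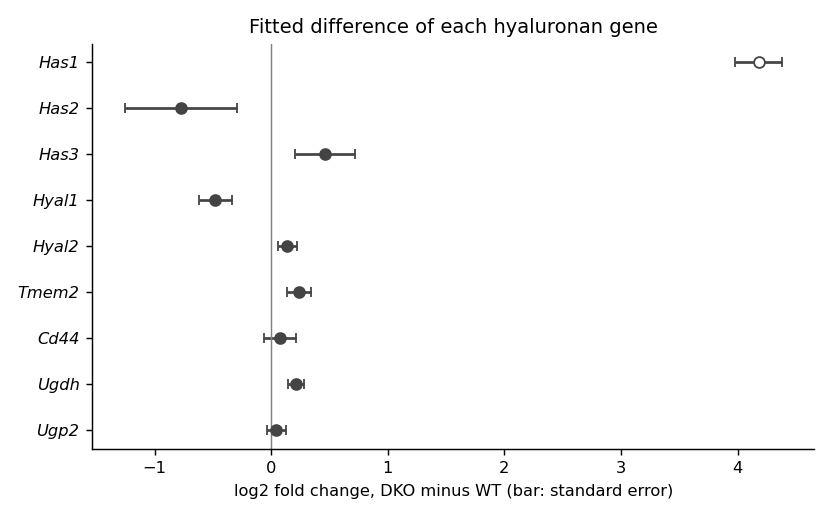
Fitted log2 fold change (DKO minus WT) of the 9 genes with its standard error, from edgeR. Has1, the open point at 4.18, chose the set and was not tested, and the other points lie between -0.77 and 0.46.

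Of the precursor enzymes, Ugdh lay slightly higher in DKO and Ugp2 overlapped between groups. Ugdh (chromosome 5, 65413221 to 65435949, minus strand, ENSMUSG00000029201) stood at 106.7, 104.5 and 101.9 CPM in WT 1, 2 and 3 and at 115.2, 129.5 and 119.1 CPM in DKO 1, 3 and 4. All DKO libraries lay above all WT libraries, by a small margin. The means were 104 ± 2.36 and 121 ± 7.39 CPM (SD, n = 3), a ratio of 1.16, and the log2 fold change was 0.22 (SE 0.07, unadjusted p = 0.0145, adjusted p = 0.173 by edgeR). The difference exceeded the spread within groups but did not pass the adjusted threshold.

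Ugp2, which makes the UDP-glucose that Ugdh uses (chromosome 11, 21321138 to 21371201, minus strand, ENSMUSG00000001891), was at 52.4, 45.9 and 49.0 CPM in WT 1, 2 and 3 and at 53.0, 47.7 and 51.3 CPM in DKO 1, 3 and 4. The groups overlapped almost fully. Its log2 fold change was 0.05 (SE 0.08, adjusted p = 0.812 by edgeR), and its direction turned with some settings. The Ugdh to Ugp2 ratio in FPKM was 1.93, 2.15 and 1.94 in WT and 2.27, 2.57 and 2.30 in DKO, higher in all 3 DKO libraries than in any WT library.

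Among the enzymes that cut hyaluronan, Hyal1 lay lower and Hyal2 and Tmem2 slightly higher, and none of the 3 was called. Hyal1, the lysosomal hyaluronidase (chromosome 9, 107576927 to 107581710, plus strand, ENSMUSG00000010051), was at 28.7, 24.0 and 29.9 CPM in WT 1, 2 and 3 and at 16.7, 23.4 and 19.3 CPM in DKO 1, 3 and 4. All DKO libraries were below all WT libraries, though DKO 3 and WT 2 were close together. The means were 27.5 ± 3.09 and 19.8 ± 3.42 CPM (SD, n = 3), and the log2 fold change was -0.48 (SE 0.15, unadjusted p = 0.0115, adjusted p = 0.158 by edgeR). Between the Xist-high libraries the log2 ratio was -0.66 and between the Xist-low libraries it was -0.49.

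The counts of Hyal1 are uncertain because 1920 of its 3777 exon bases, 50.8%, are shared with the neighbouring gene Naa80 on the same strand, and a further 4.21% of its exon length with Hyal3. The sources used here do not say how the authors' counting treated such bases. Naa80 had a mean of 47.0 in WT and 46.9 in DKO (CPM), and Hyal3, a related enzyme, at 3.34 and 3.61 CPM. Neither neighbour was called.

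Hyal2, the surface-anchored hyaluronidase (chromosome 9, 107567945 to 107572779, plus strand, ENSMUSG00000010047), was at 56.9, 59.5 and 63.9 CPM in WT 1, 2 and 3 and at 64.4, 62.2 and 71.9 CPM in DKO 1, 3 and 4. DKO 3 lay below WT 3, so the groups overlapped. The log2 fold change was 0.14 (SE 0.08, adjusted p = 0.420 by edgeR). The Hyal1 to Hyal2 ratio in FPKM was 0.646, 0.543 and 0.581 in WT and 0.332, 0.478 and 0.339 in DKO, lower in every DKO library.

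Tmem2 (chromosome 19, 21778342 to 21858360, plus strand, ENSMUSG00000024754) was at 120.1, 135.3 and 120.6 CPM in WT 1, 2 and 3 and at 134.4, 168.7 and 140.2 CPM in DKO 1, 3 and 4. DKO 1 was just below WT 2 in CPM, while on the FPKM scale all DKO libraries were above all WT libraries. Its log2 fold change was 0.24 (SE 0.10, unadjusted p = 0.0514, adjusted p = 0.280 by edgeR). Summed over Hyal1, Hyal2 and Tmem2, the FPKM was 78.1, 76.8 and 82.3 in WT and 77.3, 78.0 and 84.5 in DKO, and the groups overlapped.

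Cd44, the receptor (chromosome 2, 102811141 to 102901665, minus strand, ENSMUSG00000005087), was at 1218, 1251 and 1083 CPM in WT 1, 2 and 3 and at 1107, 1444 and 1194 CPM in DKO 1, 3 and 4. DKO 3 was the highest library, and the groups overlapped. The means were 1184 ± 89.0 and 1248 ± 175 CPM (SD, n = 3), and the log2 fold change was 0.08 (SE 0.14, adjusted p = 0.813 by edgeR). The sign turned to -0.04 without DKO 3 and to -0.16 between Xist-high libraries, and it was 0.29 between Xist-low libraries.

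In WT the order of FPKM was Cd44 at 299.5, Ugdh at 45.9, Hyal2 at 38.6, Ugp2 at 22.97, Hyal1 at 22.8, Tmem2 at 17.7, Has3 at 9.85, Has2 at 1.15 and Has1 at 0.318. Of these neighbours only Ugp2 and Hyal1 overlapped between WT libraries. Among all genes with an FPKM, silent ones included, Cd44 stood above 99.4% in WT, and Has1 above 65.9% in WT and 80.8% in DKO. The receptor was thus the most abundant transcript of the set by a wide margin, with the synthases at the bottom of the order.

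The wider pathway was read through 5 lists, and edgeR called 0 genes in each of them. Beside the counts given for these lists, 18% of all tested genes had an unadjusted edgeR p below 0.05, and DESeq2 called 5.52%. Of 9 other hyaluronidases and lysosomal enzymes that degrade hyaluronan fragments, 6 were tested, 5 with a log2 fold change above 0, and Hyal5, Hyal6 and Spam1 had 0 counts in every library. No gene of the list had an unadjusted edgeR p below 0.05, and DESeq2 called 0. The hexosaminidase gene Hexa (mean 63.5 FPKM over the 6 libraries) and the glucuronidase gene Gusb (12.4 FPKM) were among the most abundant. Their log2 fold changes were 0.12 and 0.21, with edgeR adjusted p of 0.474 and 0.318. Cemip, which encodes a hyaluronan-binding protein needed for depolymerisation and was chosen after its values were seen, was level, with means of 86.3 ± 9.82 in WT and 86.8 ± 6.00 in DKO (CPM, SD, n = 3).

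The list of other hyaluronan receptors and binding proteins held 27 genes, counting the antisense gene Has2os, which is neither and was not tested. Of these, 14 were tested and 8 had a log2 fold change above 0, with a median of 0.17. An unadjusted edgeR p below 0.05 was found for 3 higher genes and 2 lower genes, and DESeq2 called 1 gene. These genes were Hmmr, Stab1 and Acan, which lay higher in DKO, and Vcan and Itih5, which lay lower. Apart from Stab1 they were named after their values were seen. Habp2 and Itih1 had 0 counts in every library.

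Stab1 encodes stabilin-1, a scavenger receptor of macrophages and sinusoidal endothelium, and was at 63.5, 46.2 and 66.9 CPM in WT 1, 2 and 3 and 87.9, 114 and 132 CPM in DKO 1, 3 and 4. All DKO libraries were above all WT libraries. The log2 fold change was 0.92 (SE 0.18, adjusted p = 0.0641 by edgeR), and DESeq2 called it with an adjusted p of 4.8e-05. Markers of such cells lay higher in DKO as well. Summed leukocyte and macrophage markers (16 genes, 15 with a log2 fold change above 0, 0 called by edgeR and 4 called higher by DESeq2, Adgre1, C1qb, C1qc and Lyz2) were 176 to 258 CPM in WT and 260 to 417 CPM in DKO. Summed endothelial markers (12 genes, 11 above 0, 1 called higher by edgeR and 3 by DESeq2, Eng, Emcn and Plvap) were 370 to 489 CPM in WT and 527 to 566 CPM in DKO, and Plvap, an endothelial diaphragm protein, had edgeR's call, at a log2 fold change of 0.61 (adjusted p = 0.0475 by edgeR), a call lost when any library but WT 1 was left out. Over all genes edgeR called 1.04% and DESeq2 5.52%. The endothelial marker below 0 was Flt1, at -0.43 (adjusted p = 0.331 by edgeR). Without WT 2 edgeR called Flt1 lower, at -0.665 (adjusted p = 0.0128 by edgeR). The leukocyte and macrophage marker below 0 was Cd163, at -0.19 (adjusted p = 0.833 by edgeR). The marker genes other than Plvap were named after their values were seen. Their part in the Stab1 value was not tested.

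Susd5, which encodes a protein with a hyaluronan-binding Link domain, was the most abundant of this list (mean 23.5 FPKM) and stood at 47.9, 105 and 79.3 CPM in WT 1, 2 and 3 and 114, 144 and 87.9 CPM in DKO 1, 3 and 4. WT 2 lay inside the DKO range, so the groups overlapped. Its log2 fold change was 0.57 (SE 0.28, adjusted p = 0.338 by edgeR). Habp4, an intracellular hyaluronan-binding protein by name, differed by 0.17 on the log2 scale (adjusted p = 0.496 by edgeR).

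UDP-sugar supply was covered by 27 genes, of which 25 were tested, with 14 above 0, 11 below 0 and a median log2 fold change of 0.03. The most abundant were Gpi1, a glycolytic isomerase (mean 183 FPKM), Galt (41.0 FPKM) and Renbp (33.0 FPKM), at log2 fold changes of -0.06, 0.13 and 0.03 (edgeR adjusted p of 0.725, 0.459 and 0.897). Unadjusted p values below 0.05 were found for Uap1 and Nagk, which lay higher, and for Hk2, Gfpt2 and Slc35d1, which lay lower. These 5 genes were named after their values were seen. DESeq2 called Gfpt2 and Hk2 lower.

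Gfpt2 encodes an isoform of the enzyme that begins the route to UDP-N-acetylglucosamine. It was at 14.8, 3.05 and 25.1 CPM in WT 1, 2 and 3 and at 1.61, 1.43 and 1.71 CPM in DKO 1, 3 and 4. All DKO libraries were below all WT libraries, and WT 2 was far below the other WT libraries. The log2 fold change was -3.18 (SE 0.68, adjusted p = 0.0799 by edgeR), and it was -3.65 with an edgeR adjusted p of 0.00236 without WT 2. Gfpt2 was not called when any other single library was left out. Oral keratinocyte markers also lay lower in DKO: 7 of 12 were tested, all 7 were below 0 (median log2 fold change -1.52), and their sum was 268 to 454 CPM in WT and 76.9 to 127 CPM in DKO. Krt6a, a keratin of stressed and oral epithelium, was called at -1.95 (adjusted p = 0.0216 by edgeR), a call lost when DKO 3, DKO 4 or WT 3 was left out. It made up most of the sum, with means of 328 CPM in WT and 84.9 CPM in DKO. For 3 of the 7 all DKO libraries lay below all WT libraries, as they did for 1740 of all 14721 tested genes. Krt13 and Krt4, named after their values were seen, overlapped between groups. The order of the WT libraries differed between the 7 tested markers, the rest of which were also named after their values were seen. Krt13, Krt4 and Lor were lowest in WT 1, at 0.339, 0.764 and 0.806 CPM, where Gfpt2 was at 14.8 CPM. Krt6a, Krt16 and Sbsn were lowest in WT 2, at 230, 5.48 and 6.59 CPM, as Gfpt2 was at 3.05 CPM. Krt10 was lowest of the WT libraries in WT 3, at 8.54 CPM. Whether oral keratinocytes carry Gfpt2 was not tested.

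Sulfated glycosaminoglycans compete for the same UDP-sugars, and 18 of 19 listed chain synthesis genes were tested. Their median log2 fold change was 0.10, and 11 were above 0 and 7 below. The heparan sulfate polymerase genes Ext1 (mean 58.4 FPKM) and Ext2 (37.0 FPKM) differed by -0.05 and 0.22, and the linker enzyme gene B3gat3 (33.6 FPKM) by 0.16, with edgeR adjusted p of 0.845, 0.186 and 0.288. An unadjusted edgeR p below 0.05 was found for Ext2, Extl3 and Xylt1, which lay higher, and Csgalnact1, which lay lower. DESeq2 called 0 genes of the list. Extl3, Xylt1 and Csgalnact1 were named after their values were seen.

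CD44 partners, sheddases and splicing factors made a list of 25 genes, 24 of them tested, with 11 above 0, 13 below 0 and a median log2 fold change of -0.09. An unadjusted edgeR p below 0.05 was found for 1 gene that lay higher and 8 that lay lower. The higher gene was Mmp14, a membrane protease that sheds CD44 and the most abundant of the list (mean 224 FPKM). It was at 529, 485 and 559 CPM in WT 1, 2 and 3 and at 673, 665 and 642 CPM in DKO 1, 3 and 4, without overlap. Its log2 fold change was 0.33 (SE 0.10, adjusted p = 0.145 by edgeR, DESeq2 adjusted p = 0.00418). The cytoskeletal linker gene Ezr and the GTPase gene Rac1, the next most abundant, differed by 0.015 and 0.016, with edgeR adjusted p of 0.955 and 0.934.

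On the lower side DESeq2 called 4 genes of the CD44 list, Erbb2, Vav2, Ank3 and Esrp2, which were named after their values were seen. Erbb2, a receptor kinase that CD44 can bind, was at 94.8, 82.0 and 100.5 CPM in WT 1, 2 and 3 and 66.6, 67.5 and 72.7 CPM in DKO 1, 3 and 4. The groups did not overlap. Its log2 fold change was -0.42 (SE 0.09, adjusted p = 0.0734 by edgeR), and without WT 2 it was -0.50 with an edgeR adjusted p of 0.0247. Vav2, which encodes a guanine nucleotide exchange factor, differed by -0.85 (adjusted p = 0.162 by edgeR), and without WT 2 by -1.10 with an edgeR adjusted p of 0.0216. Its groups overlapped, with WT 2 at 24.8 CPM inside the DKO range of 20.2 to 26.7 CPM. Neither Erbb2 nor Vav2 was called when any other single library was left out. The splicing factor gene Esrp2, whose product favours epithelial exon choices in Cd44, differed by -0.36 (adjusted p = 0.0912 by edgeR). Exon use of Cd44 was not measured, as the tables count whole genes.

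**Figure D5:**
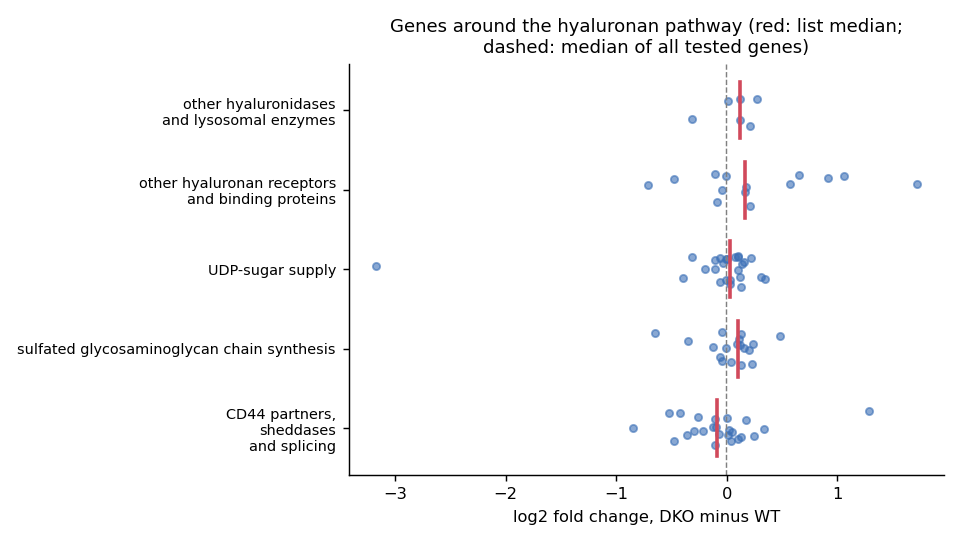
Log2 fold change (DKO minus WT) of every tested gene in the 5 lists around the pathway, with the list median in red and the median of all tested genes as a dashed line. The medians run from -0.09 to 0.17, and Gfpt2 at -3.18 lies farthest from 0.

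The protein-coding genes whose log2 CPM followed Has1 most closely over the 6 libraries were Tph1 (r = 0.9984), Vav3 (r = 0.9936), Hpcal1 (r = 0.9934), Gm3512 (r = 0.9933) and Sulf2 (r = 0.9920). The libraries share their groups, so any gene with a clean difference between groups scores high. Tph1, a tryptophan hydroxylase, was at 1.06, 0.969 and 1.31 CPM in WT 1, 2 and 3 and 16.8, 20.5 and 21.2 CPM in DKO 1, 3 and 4. Its mean ratio of 17.6 was close to that of Has1. Sulf2, an enzyme that removes sulfate from heparan sulfate, had a ratio of 2.04, with 120 ± 5.36 in WT and 244 ± 12.3 in DKO (CPM, SD, n = 3). The other ratios were 1.72 for Vav3, 1.27 for Hpcal1 and 2.29 for Gm3512. The cyclic AMP response element seen before Has1 had 0 matches in the first 233 bases of the RefSeq promoter entries of these 5 genes.

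Around Has1, 21 annotated genes lay within 500 kb on either side, and 12 of them had 0 counts in all libraries. Of the 5 that were tested, edgeR called 0 and DESeq2 called 0, and 1 had an unadjusted edgeR p below 0.05. That gene, Lnpep, an aminopeptidase gene named after its values were seen, was 218 kb away and differed by -0.34 on the log2 scale (adjusted p = 0.176 by edgeR). Spaca6, a sperm protein gene 0.314 kb from Has1 and also named after its values were seen, was at 5.22, 9.11 and 18.7 CPM in WT 1, 2 and 3 and 4.56, 7.64 and 7.81 CPM in DKO 1, 3 and 4. The groups overlapped, with WT 3 the highest library.

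Has1 is also expressed by fibroblasts and mesothelium, and markers of such cells were read beside it. Of 15 mesenchyme markers 14 were above 0, the median log2 fold change being 0.28, with 0 called by edgeR or DESeq2, and 0 had an unadjusted edgeR p below 0.05. Their sum was 7360 to 12150 CPM in WT and 11320 to 14230 CPM in DKO, so the groups overlapped. Of 9 adventitial fibroblast and mesothelial markers only 3 were tested, and the sum of the 9 was 47.4 to 64.5 CPM in WT and 71.7 to 80.2 CPM in DKO. That sum was mostly Cd34, which endothelium also expresses (37.9 CPM in WT and 49.6 CPM in DKO), and Ly6a (16.8 and 23.7 CPM), both named after their values were seen, and the other 7 markers had group means of at most 1.31 CPM. The defining mesothelial genes Msln, Upk3b, Lrrn4 and Wt1 had 0 counts in all DKO libraries and at most 0.17 CPM in WT. The part of mesenchymal cells in the Has1 value was not tested.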

How the data were processed

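RNA of 6 libraries was prepared with the unstranded TruSeq RNA v2 kit, per the labels' protocols. The authors deposited unnormalised counts, whole numbers for each Ensembl gene, in a table per library. Their FPKM values, per the file headers, are Cufflinks output. The submitters' processing notes name GRCm38, HTSeq, Cufflinks 2.2 and Trimmomatic 0.32 without roles. The sources used here give neither the aligner nor the annotation release. Symbols came from the FPKM tables (46406 of 46603 genes). Positions are 1-based, from GENCODE vM21 on GRCm38, and promoters from RefSeq.

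DKO was compared with WT on the counts with edgeR 4.0.16 in R 4.3.3 (quasi-likelihood test), TMM scaling and filterByExpr, without covariates, and Benjamini-Hochberg adjustment over 14721 genes. CPM are TMM-scaled. The Poisson intervals cover counting error only, and library totals were 18609759 to 22829411 counts. No pair of replicate libraries agreed within sampling noise (chi-square per degree of freedom at least 14.34). Alternatives were DESeq2 1.42.0, other scalings and filters, a replicate block, an Xist term, limma 3.58.1 on log2 FPKM, and leaving out each library. The values within Xist-high and Xist-low libraries were added after seeing the data.

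The members and lists were chosen with earlier results of these data known. Named are the 9 members, the called genes and the 3 with the highest mean FPKM of each pathway list, called marker genes with Ambn, Amelx, Enam, Klk4 and Krt14, the 5 genes most correlated with Has1, and Stim1, Stim2 and Xist. Others are said to have been named after their values were seen. Some genes that this rule names are not reported here.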

Additional observations from a re-analysis of the deposited data

How the results depend on the processing

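Has1 kept its direction in all 18 settings, with log2 fold changes of 2.41 to 4.27, and so did Has2, Has3, Hyal1, Hyal2, Tmem2 and Ugdh wherever they had a value. Has2 fell below the filter in the filtered FPKM fits and had no value there. Cd44 turned to -0.16 within the Xist-high libraries and to -0.041 without DKO 3 (range -0.041 to 0.16 when each library was left out). Ugp2 turned to -0.011 with the replicate block and to -0.001 without WT 2 (range -0.001 to 0.10). The count of called genes was 153 and became 554 without the filter, 826 with DESeq2, 328 with the replicate block, 71 with the Xist term, 77 with limma on log2 FPKM at either pseudocount and 11 there without a filter. It ran from 21 (without DKO 4) to 335 (without WT 2) when each library was left out, with 23 without DKO 3, 30 without WT 3 and 84 without WT 1. The split was 108 higher and 45 lower with all libraries, and it turned to 124 and 211 without WT 2 and to 132 and 196 with the block. Called members were 0, and 1, Has3, with the replicate block or without WT 2 (range 0 to 1). Among the lists, 1 receptor gene was called higher without the filter and with DESeq2 (Stab1) and 1 with the block (Susd5). Lower UDP-sugar genes numbered 1 without the filter, 2 with DESeq2, 1 with the block and 0 to 1 when each library was left out. The sulfated chain list had 1 lower gene with the block. The CD44 list had 1 higher gene with DESeq2, and 1 lower gene without the filter, 4 with DESeq2, 1 with the block and 0 to 2 when each library was left out. The cause of these changes was not tested. The groups share only replicate numbers 1 and 3, and deviations of same-numbered libraries correlated at 0.189 and 1e-04, so the block was not taken as a pairing. The differences of Has2, Has3, Cd44 and Ugp2 were within the SD of log2 CPM of at least 1 group.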
